A study of Bos taurus with 12 samples.

Results

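ACTB and GAPDH are the genes most often used to normalise expression measurements, and both were examined here across fetal fibroblasts and 8-cell embryos of Holstein cattle. They were chosen by their Ensembl gene IDs, ENSBTAG00000026199.4 for ACTB and ENSBTAG00000014731.5 for GAPDH, which are 2 of the 22445 loci of the deposited table. Both IDs were found, each in 1 row. The table itself gives no gene names, so the symbols rest on the IDs alone. The labels describe 4 groups of 3 libraries each. One group is bovine fetal fibroblasts, the cell type abbreviated BFF. The other groups are pools of 8 embryos at the 8-cell stage, made by in vitro fertilisation (IVF), by cloning through somatic cell nuclear transfer (SCNT), where an enucleated egg receives a somatic nucleus, or by SCNT with KDM5B overexpression. KDM5B is a histone demethylase that acts on methylated lysine 4 of H3, a mark of active promoters; the labels do not say how it was overexpressed or which cells gave the nuclei. The fibroblasts carry a sample group label that names SCNT embryos, and were grouped by their titles.

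Expression is given in FPKM, a fragment count divided by transcript length and by the library's mapped total. The table holds 1 value per locus and group, read from the values as the mean of 3 libraries, so no SD and no test can be given and each difference has no replicate check. Read totals are not kept, and the depth behind each value is unknown. In pooled embryos and cultured cells, fewer cells of a type and less RNA per cell cannot be told apart.

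ACTB encodes beta-actin, a cytoplasmic actin that builds the filaments of the cell cortex, stress fibres and the cleavage furrow. GAPDH encodes glyceraldehyde-3-phosphate dehydrogenase, the glycolytic enzyme that oxidises glyceraldehyde 3-phosphate and yields NADH. Both are called housekeeping genes because most cell types transcribe them, and a measured gene is often divided by one of them to correct for the amount of input RNA. That division carries any difference of the reference itself into every gene. Cleavage-stage embryos still hold RNA stored in the egg while their own genome is being activated, and they take much of their energy from pyruvate rather than from glucose. The ACTB protein is nearly identical to gamma-actin (ACTG1), and GAPDH has processed copies elsewhere in mammalian genomes. How reads shared with such copies were counted is not given in the sources used here, so both levels are uncertain to that extent.

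In fibroblasts the genes stood side by side near the top of the table. ACTB was listed at 2555 FPKM, rank 18 of 22445 loci, and GAPDH at 2549 FPKM, rank 19. Each made up about 0.48% of the summed FPKM of the fibroblast column (0.483% for ACTB and 0.482% for GAPDH). In embryos both were far lower, and they parted from each other.

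ACTB was listed at 258 FPKM in the IVF group, 279 in the SCNT group and 256 in the SCNT group with KDM5B. The embryo means lay within 1.09-fold of each other. Its rank was 410 in IVF, 534 in SCNT and 557 in SCNT with KDM5B, so that in each embryo group at most 2.48% of loci stood above it. The order of the embryo means cannot be told from their unknown spread.

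GAPDH was listed at 101 FPKM for IVF, 14.8 for SCNT and 42.8 for SCNT with KDM5B. Its rank went from 1078 in IVF to 4018 in SCNT and 2329 in SCNT with KDM5B, with 4.80%, 17.9% and 10.4% of loci above it. The SCNT mean was 14.7% of the IVF mean, and the mean with KDM5B was 42.5% of it. The order of the group means, whose spread is unknown, was therefore fibroblasts, IVF, SCNT with KDM5B and SCNT, from the highest to the lowest.

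**Figure D1:**
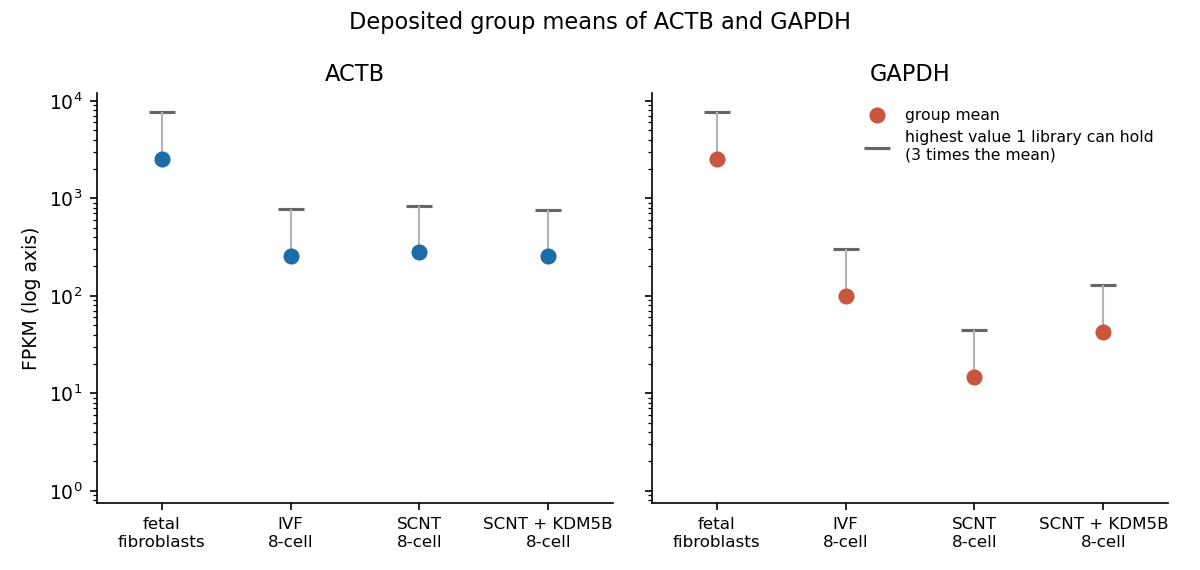
FPKM of ACTB and GAPDH (log axis) in the 4 groups; points are the deposited group means and grey bars mark 3 times the mean, the highest value that 1 of 3 libraries can hold given that mean. ACTB lies between 256 and 279 FPKM in the 3 embryo groups, while GAPDH lies between 14.8 and 101, and in fibroblasts they stand at 2555 and 2549 FPKM.

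A mean of 3 libraries that cannot be negative sets a limit on each of them: none can exceed 3 times the mean. For GAPDH this limit was 44.4 FPKM for an SCNT library, below the IVF mean of 101, so at least 1 IVF library stood above every SCNT library. Means more than 3-fold apart in this direction were found for 36.5% of the 14332 loci at 1 FPKM or more in IVF or SCNT. The limit for a library of SCNT with KDM5B was 129 FPKM, above the IVF mean, and the KDM5B mean of 42.8 lay under the SCNT limit of 44.4. Whether libraries overlapped in the comparisons of the KDM5B group with IVF or SCNT is thus not known. The other IVF libraries are not placed by the SCNT limit, so overlap of IVF with SCNT libraries is not known either. For ACTB the embryo limits ran from 768 to 838 FPKM, and overlap of the embryo libraries is likewise not known. The fibroblast means of both genes lay above the limit of every embryo group, so at least 1 fibroblast library exceeded every embryo library for each gene. The other fibroblast libraries are not placed by these limits, so their overlap with embryo libraries is not known. Fibroblast means more than 3-fold higher were found for 33.4% of loci against IVF, 36.1% against SCNT and 32.7% against SCNT with KDM5B.

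The first comparison asked how cloned embryos differ from fertilised embryos of the same stage. On the scale of log2(FPKM + 1), where 1 is added to keep zeros and a difference of 1 is 2-fold, ACTB differed by 0.11 between SCNT and IVF and GAPDH by -2.69, a ratio of FPKM of 6.80 in favour of IVF. GAPDH was thus 2-fold lower in SCNT, like 38.0% of the 14332 loci, and ACTB was within 2-fold, like 37.9%. The median over these loci was -0.52, with quartiles of -1.45 and 0.95. A difference more negative than that of GAPDH was found for 4.45% of loci.

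Because the columns as a whole were shifted against each other, the same differences were computed after median centring. Centring, which shifts each of the 4 columns so that its loci deviate from their own means by a median of 0, gave 0.31 for ACTB and -2.48 for GAPDH. Under this scaling GAPDH was 2-fold lower in SCNT, like 31.6% of loci, and ACTB within 2-fold, like 40.9%. Subtracting the median difference of the comparison itself gave 0.64 for ACTB and -2.16 for GAPDH. The sign of the small ACTB difference turned with the scaling: it was -0.08 after rescaling each column to a sum of 1000000 (TPM) and -0.37 after quantile normalization. GAPDH stayed more than 2-fold lower in SCNT in each of the 10 alternatives, from -2.97 to -2.16.

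The second comparison asked what KDM5B overexpression changed in cloned embryos. ACTB differed by -0.12 and GAPDH by 1.47, the latter a ratio of FPKM of 2.89 in favour of the KDM5B group. GAPDH was among the 7.61% of 12607 loci that were 2-fold higher with KDM5B, and ACTB among the 90.3% within 2-fold. The median over all these loci was 0.21, and 1.67% of loci had a more positive difference than GAPDH. After centring the 4 columns the differences were -0.33 for ACTB and 1.27 for GAPDH, with 4.03% of loci 2-fold higher and 91.9% within 2-fold. ACTB had a negative difference and GAPDH one above 2-fold in each of the 10 alternatives.

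The third comparison set cloned embryos with KDM5B against fertilised embryos. ACTB differed by -0.01 and GAPDH by -1.21, a ratio of FPKM of 2.35 in favour of IVF. GAPDH was 2-fold lower, like 31.8% of 14538 loci, and ACTB within 2-fold, like 41.7%. Centring the 4 columns left these differences at -0.01 and -1.21, with 31.8% of loci 2-fold lower and 41.8% within 2-fold. The call for GAPDH was lost when the median difference of the comparison was subtracted, which gave -0.92, and when the 3 embryo columns were centred by themselves, which gave -0.95. This comparison shares its IVF column with the first comparison and its KDM5B column with the second, so the 3 sets of values are not independent.

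Fibroblasts were then set against the embryos. The ACTB mean was 9.89 times the IVF mean, a log2 difference of 3.30, and 9.15 times the SCNT mean, a log2 difference of 3.19. The GAPDH mean was 25.3 times the IVF mean, a log2 difference of 4.65, and 172 times the SCNT mean, a log2 difference of 7.33. Both genes were 2-fold higher in fibroblasts, as were 35.6% of 15634 loci against IVF and 38.6% of 14703 loci against SCNT. Centred values were 3.59 and 3.28 for ACTB and 4.94 and 7.42 for GAPDH, with 38.9% and 39.7% of loci 2-fold higher in fibroblasts. A difference from SCNT more positive than that of GAPDH was found for 0.619% of loci, and one more positive than that of ACTB for 13.8%. Against IVF these shares were 4.45% for GAPDH and 11.5% for ACTB. The design text assigns the fibroblast libraries to another sequencer (BGISEQ) than the embryo libraries (HiSeq), whereas the extraction protocol mentions just the HiSeq, and it describes cDNA amplification for embryos. Cell type and these steps cannot be told apart in these differences.

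**Figure D2:**
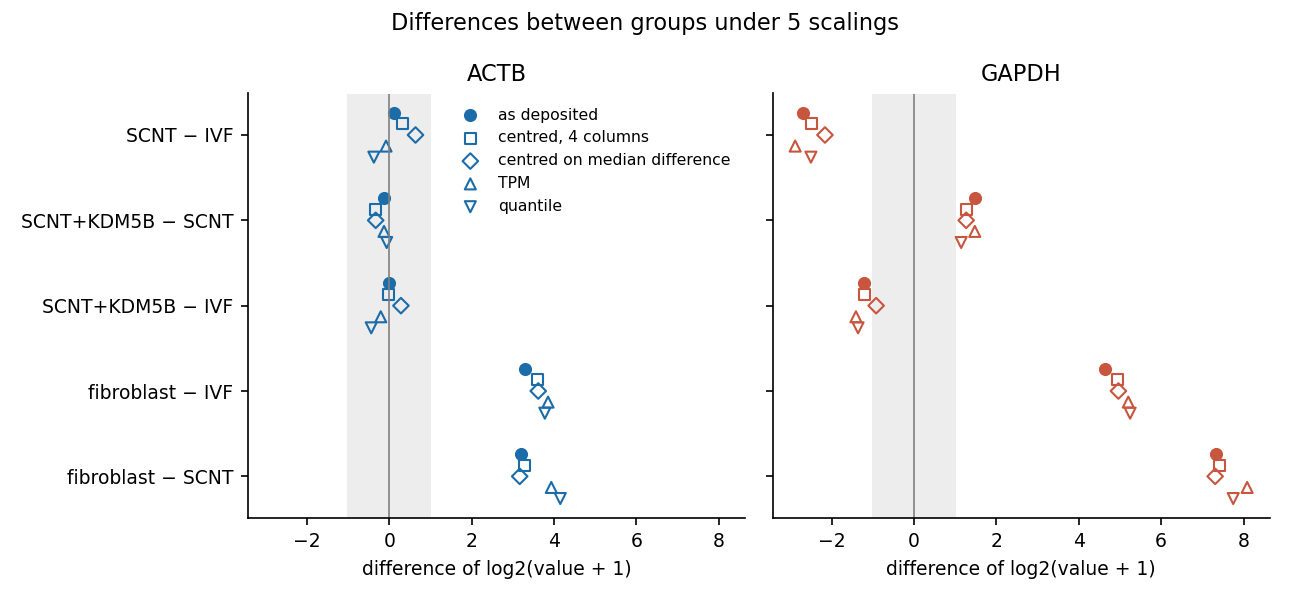
Difference of log2(value + 1) between group means for ACTB and GAPDH in 5 comparisons, under 5 scalings of the columns; the grey band spans differences under 2-fold. Taken over the 3 embryo comparisons, the ACTB symbols lie on both sides of 0 within the band, from -0.44 to 0.64, whereas the GAPDH symbols for SCNT minus IVF lie between -2.89 and -2.16.

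The low GAPDH mean of SCNT embryos was set beside other loci that fibroblasts hold in abundance. Of 87 loci at 1000 FPKM or more in fibroblasts, 50 had SCNT means 2-fold above IVF and 7 had them 2-fold below, with a median log2 difference of 1.43. GAPDH was one of the 7 and had the most negative difference of the 87. At limits of 100, 500 and 2000 FPKM, 270 of 770, 93 of 169 and 7 of 25 loci were higher in SCNT and 142, 17 and 3 were lower. Over all 14332 loci at 1 FPKM or more in SCNT or IVF, 3454 were 2-fold higher in SCNT and 5443 (38.0%) were 2-fold lower. At or below the GAPDH difference, GAPDH included, stood 11 of the 770 loci, 3 of the 169 and 1 of the 25. These limits were chosen after the values of the genes were seen.

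Within a column the ratio of the genes does not depend on how the column is scaled by a factor. ACTB over GAPDH was 1.00 for fibroblasts, 2.56 for IVF, 18.9 for SCNT and 5.98 for SCNT with KDM5B. The ratio differed 7.36-fold between SCNT and IVF, 3.16-fold between SCNT with and without KDM5B, and 18.8-fold between fibroblasts and SCNT. A gene divided by ACTB and the same gene divided by GAPDH would therefore give SCNT to IVF folds that are 7.36-fold apart in the deposited values, a log2 difference of 2.88. Quantile normalization, which is no scaling by a factor, lowered that log2 difference to 2.20. The ratio shows unequal change of the pair and not which of them differed.

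As a measure of evenness, the highest minus the lowest log2(FPKM + 1) over the groups was computed for the 2185 loci at 10 FPKM or more in each of the 4 groups. This limit leaves out loci that fall lower in any group, so shares of loci hold within the set compared. Over the 3 embryo groups the range of ACTB was 0.12 and that of GAPDH 2.69, against a median of 1.32. A smaller range was found for 17 loci (0.778%) in the case of ACTB and for 1898 loci (86.9%) in that of GAPDH. At 100 FPKM or more in each group, 166 loci remained and none had a smaller embryo range than ACTB as deposited. ACTB's place depended on scaling: the share of the 2185 loci with a smaller embryo range was 5.81% with the 4 columns centred, 2.20% as TPM, 11.9% after quantile normalization and 15.3% with the embryo columns centred by themselves. At the limit of 100 FPKM it was 3.61%, 0%, 7.83% and 10.8% in the same order.

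With fibroblasts included, neither gene was even. The range over the 4 groups was 3.31 for ACTB and 7.33 for GAPDH, against a median of 2.25. Of the 2185 loci, 76.1% had a smaller range than ACTB and 99.7% a smaller one than GAPDH. Loci under 10 FPKM in any group are left out of this set, wide ranges among them. At 1 FPKM or more in fibroblasts or SCNT, 0.619% of 14703 loci exceeded the GAPDH difference between those groups. For ACTB the range was 4.06 as TPM and 4.22 after quantile normalization, with 91.3% and 89.8% of loci smaller. All 4 means lay within 2-fold for 276 loci (12.6%). The smallest range among Ensembl IDs, 0.07, belonged to ENSBTAG00000006556.4, listed at 53.6 FPKM in fibroblasts, 52.4 in IVF, 55.2 in SCNT and 54.2 in SCNT with KDM5B. ENSBTAG00000021976.3 followed with a range of 0.13, at 23.4, 25.4, 25.6 and 23.3 FPKM in the same order. The IDs could not be matched to names. They were picked as the extremes of group means without replicate values, so their evenness is a description.

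**Figure D3:**
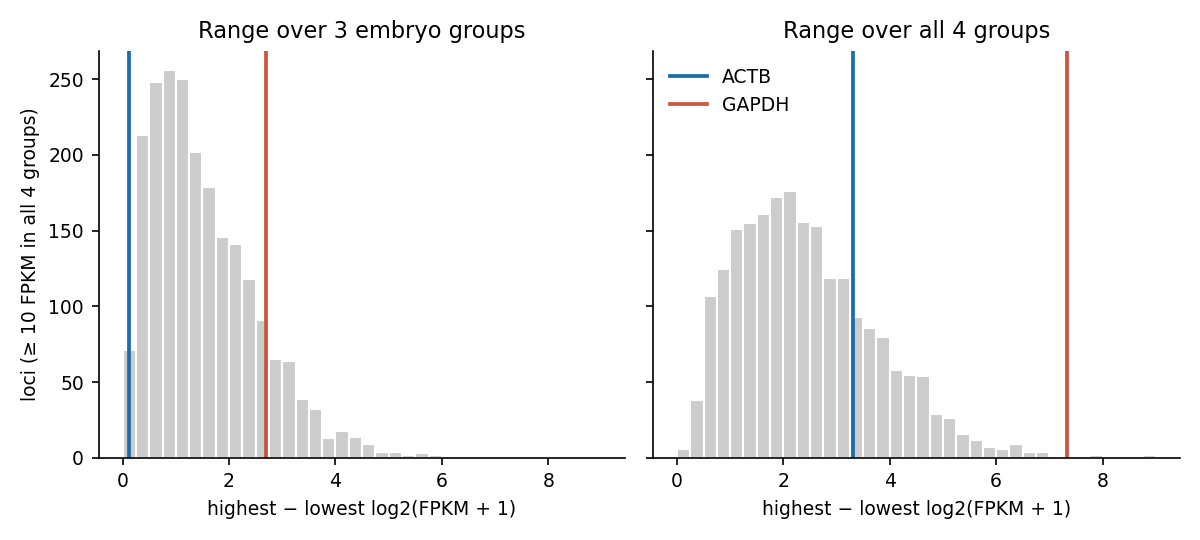
Histograms of the range of log2(FPKM + 1), highest minus lowest group mean, over the 3 embryo groups (left) and all 4 groups (right) for the 2185 loci at 10 FPKM or more in every group; lines mark ACTB and GAPDH. ACTB stands at 0.12 on the left and 3.31 on the right, and GAPDH at 2.69 and 7.33.

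The loci with patterns most like the pair were sought among 2142 Ensembl IDs at 10 FPKM or more in each group, by the root mean square distance between log2(FPKM + 1) values over the 4 groups with each gene's mean removed. Nearest to ACTB, at a distance of 0.16, was ENSBTAG00000002608.5, with 173 FPKM in fibroblasts, 18.5 in IVF, 15.4 in SCNT and 18.9 in SCNT with KDM5B. Next, at 0.25, was ENSBTAG00000014648.5, with 229, 15.8, 23.9 and 25.8 FPKM. Within a distance of 0.5 of ACTB lay 27 IDs, whose embryo means need not be as level as those of ACTB. Within 0.5 of GAPDH lay 0, a count that the limit of 10 FPKM in each group bears on. GAPDH stood at 14.8 FPKM in SCNT and 2549 in fibroblasts. An ID of like pattern passes the limit only if it is abundant in fibroblasts, where 87 loci reached 1000 FPKM. The 0 thus does not show how rare the pattern is. Nearest to GAPDH was ENSBTAG00000011931.3 at 0.63, with 979, 68.5, 15.7 and 15.3 FPKM, and then ENSBTAG00000006189.5 at 0.67, with 2413, 86.4, 28.7 and 21.4 FPKM. Both were lower in SCNT than in IVF as GAPDH was, but neither had the higher mean with KDM5B that GAPDH had. Their means with KDM5B lay under those of SCNT without it, by little for ENSBTAG00000011931.3. That order cannot be told from means of unknown spread.

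Finally, the whole table was scaled as if each gene were the reference, by making its value equal to that of IVF in every column. To do so the SCNT column was multiplied by 0.925 for ACTB and by 6.80 for GAPDH, the KDM5B column by 1.01 and 2.35, and the fibroblast column by 0.101 and 0.0395. Each factor multiplies every locus of a column alike, so the direction of the shifts that follow comes from the differences of ACTB and GAPDH themselves. The counts are thus no further evidence about these genes. Their size also depends on the 1 added before the log, which holds back loci of low FPKM. Between SCNT and IVF, 3454 loci were 2-fold higher and 5443 lower as deposited. Equal ACTB gave 3222 higher and 5685 lower, and equal GAPDH gave 9179 higher and 682 lower. The share of higher loci among those 2-fold apart went from 38.8% as deposited to 36.2% with ACTB and 93.1% with GAPDH. With the geometric mean of both it was 70.0%, from 6158 higher and 2633 lower loci.

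The same arithmetic was applied to clones with and without KDM5B. As deposited 959 loci were higher and 268 lower with KDM5B, with equal ACTB 1254 and 180, and with equal GAPDH 165 and 7797. The share of higher loci was 78.2%, 87.4% and 2.07% in turn, and 14.9% with both. Between KDM5B clones and IVF the share was 45.4% as deposited, 45.6% with ACTB, 79.7% with GAPDH and 62.4% with both. For fibroblasts against IVF both references moved the table one way. The share of loci higher in fibroblasts was 46.5% as deposited, 11.1% with equal ACTB, 4.35% with equal GAPDH and 6.94% with both. The deposited share itself crossed an even split, to 51.2% with a pseudocount of 5 and 50.9% for loci at 10 FPKM or more in either group.

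**Figure D4:**
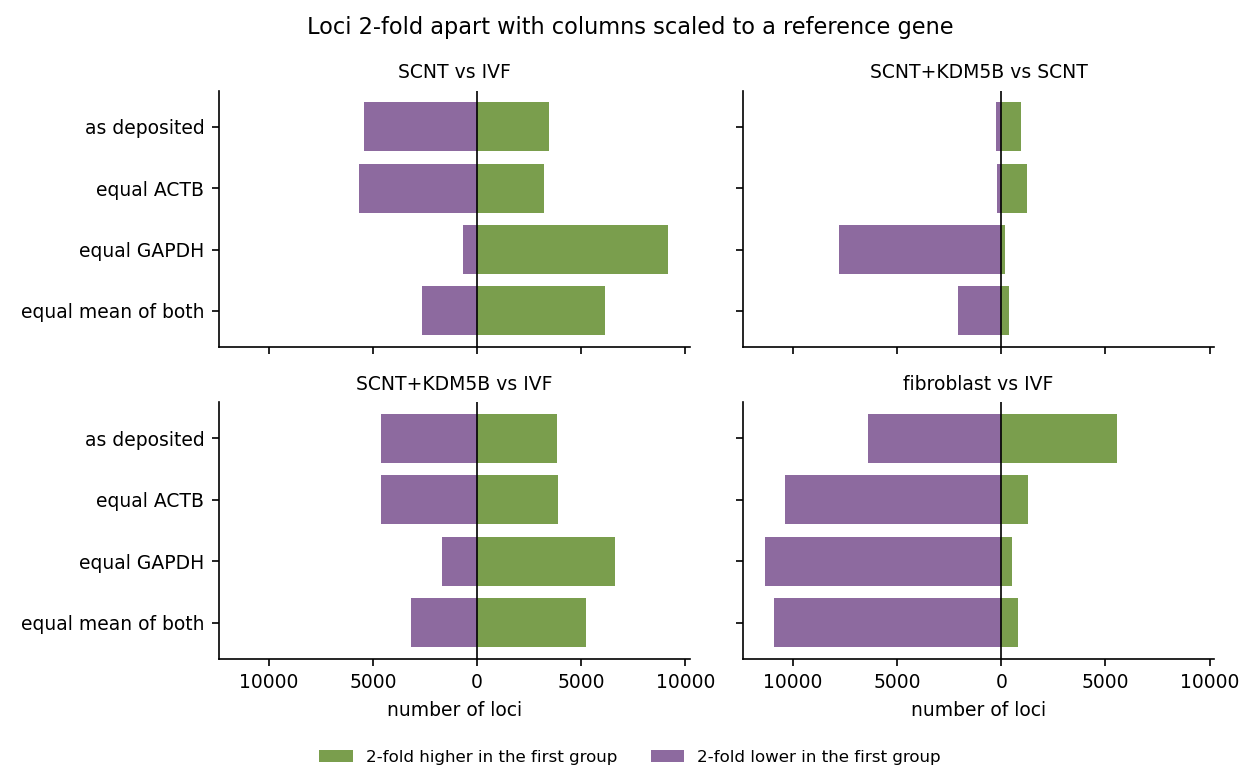
Number of loci at least 2-fold higher (right of 0) or lower (left of 0) in the first group of each comparison, as deposited and with columns scaled to equal ACTB, equal GAPDH or an equal geometric mean of both. Equal ACTB leaves the embryo comparisons on the same side as deposited, while equal GAPDH turns SCNT against IVF from 38.8% to 93.1% higher loci and KDM5B against SCNT from 78.2% to 2.07%; these shifts follow from the differences of GAPDH itself.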

How the data were processed

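The deposited table holds FPKM, computed by the authors, in 1 column per group. In each column at least 99.9911% of values are whole multiples of 0.01 divided by 3 (tolerance 0.001 on the value times 300), hence their reading as means of 3 libraries. Per the submitters' processing notes the build was UMD3.1, and the tools listed there are RSEM 1.2.12 and Bowtie2 2.2.5, StringTie 1.0.4 and HISAT 0.1.6, and bcl2fastq 2.16, with no role stated. For annotation and filters, nothing is stated. Column sums ran from 528618 in fibroblasts to 887410 in SCNT with KDM5B, and low genes from amplified cDNA can be shifted.

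Differences are of log2(FPKM + 1) between group means, counted at 2-fold over loci at 1 FPKM or more in either group. With 1 value per group, no limma fit was possible. Centring used 17081 loci at 1 FPKM or more in any group, or 14836 for the embryo columns alone. The pseudocounts tried were 0.1 and 5, beside TPM, quantile normalization and other filters. Named IDs were those nearest in pattern to each gene (2 each) and the 2 with the smallest range. The fixed lists of other reference, actin, glycolysis and marker genes could not be used: the RefSeq gene table (ARS-UCD2.0, 37063 entries) has 0 Ensembl IDs, so tissue labels were not checked against markers. The genes and lists were chosen with earlier results of these data known. Counting and scaling code was tested on copies of the IVF column with planted changes. Centring was checked there only at a higher FPKM limit than the one used here. Python 3.11.15, numpy 2.4.6, pandas 2.3.3 and matplotlib 3.10.9 were used.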

Additional observations from a re-analysis of the deposited data

How the results depend on the processing

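Of 202 values recomputed under an alternative, 168 moved by less than 1.5-fold and kept their side of 2-fold, where they have one. The other 34 moved, and 0 reversed a 2-fold difference. A share under reference scaling that crossed an even split also counted as moved. Ranks, ranges and shares have no sign, and the ACTB embryo differences were under 2-fold, so none of these could count as reversed. The causes were not tested unless the construction shows them. Ranks among Ensembl IDs stayed within 1.5 times. ACTB stayed within 2-fold in each embryo comparison, with a changed sign in 3 of 10 alternatives for SCNT against IVF and 2 of 10 for KDM5B against IVF. GAPDH for KDM5B against IVF was -0.92 with the median difference subtracted and -0.95 with embryo columns centred, both chosen after seeing the data. ACTB for fibroblasts against IVF was 3.93 with columns centred on loci at 10 FPKM in all groups, and against SCNT 4.10 in that way, 3.93 as TPM and 4.15 after quantile normalization. GAPDH was 5.27 against IVF and 8.25 against SCNT with that centring, 8.09 against SCNT as TPM, and 5.25 against IVF after quantile normalization. Centring on Ensembl IDs alone lowered the fibroblast differences, by less than 1.5-fold. Against IVF and SCNT in turn they were 3.15 and 2.82 for ACTB and 4.49 and 6.97 for GAPDH. Quantile normalization gave log2 differences of the ACTB to GAPDH ratio of 2.20 (2.88 as reported) for SCNT and 0.94 (1.22) for KDM5B against IVF. The range over 4 groups was 4.06 as TPM and 4.22 after quantile normalization for ACTB, and 8.09 as TPM for GAPDH. The share of loci with a smaller embryo range than ACTB was 5.81% centred, 2.20% as TPM, 11.9% after quantile normalization, 15.3% with embryo columns centred and 0% at 100 FPKM, where fewer loci are compared.

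The deposited share of loci higher in fibroblasts than in IVF, 46.5%, was 51.2% with pseudocount 5 and 50.9% at 10 FPKM in either group. With reference scaling, the share of higher loci for fibroblasts against IVF was 17.7% (pseudocount 0.1), 6.70% (pseudocount 5) and 18.3% (10 FPKM in either group) with ACTB, 10.1%, 2.33% and 7.40% with GAPDH, and 13.4%, 4.09% and 11.7% with both. With GAPDH, KDM5B against SCNT gave 0.503% (pseudocount 5) and 0.344% (10 FPKM), and with both genes 5.44% and 6.02%. For KDM5B against IVF with ACTB it crossed an even split, at 50.2% with pseudocount 5. Depth is unknown, and group means leave the spread between libraries unmeasured. No paired analysis was possible because each group has a single mean column, and replicates could not be left out in turn for the same reason.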
